A study of Homo sapiens with 4 samples.

Results

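The TGF-beta, bone morphogenetic protein (BMP) and growth differentiation factor (GDF) genes described here were chosen by gene symbol: GDF, BMP, inhibin (INHA, INHB), TGFB, SMAD, activin receptor (ACVR) and latent TGF-beta binding protein (LTBP) genes, with NOG, FST, CHRD, GREM1, MSTN, LEFTY1 and LEFTY2. They numbered 62 of the 18417 genes that an Affymetrix gene array measured with a probe set of 1 symbol. The cells were H1299, which derive from a non-small cell carcinoma of human lung and make no p53 of their own, with a tet-on construct for wild-type mouse p53. The labels describe 1 stable line and no cells that received doxycycline without the construct. The study compared 2 arrays of the line before induction (uninduced) with 2 arrays of the line after 24 hours in doxycycline at 0.5 µg/mL (induced), all in medium with 10% tet-free serum. The labels call the arrays of a group technical replicates, so p-values measure only the spread between these arrays, and their number limits the precision. Of the 62 genes, 5 match the symbols without being a ligand, receptor, SMAD, antagonist or LTBP: BMP1, BMP2K, TGFB1I1, TGFBRAP1 and the antisense gene GDF5-AS1.

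Ligands of this family are secreted as dimers of cystine-knot chains and bind complexes of type I and type II receptor kinases. The type I receptor phosphorylates SMAD2 and SMAD3 for TGF-beta and activins, or SMAD1, SMAD5 and SMAD9 for BMPs, and these enter the nucleus with SMAD4. SMAD6 and SMAD7 inhibit the pathway, secreted antagonists such as noggin trap ligands, and LTBPs hold latent TGF-beta in the matrix. In epithelial cells TGF-beta is known for growth arrest and for epithelial-mesenchymal transition.

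After induction the family moved in both directions. The ligand genes GDF9 and GDF15 rose 23.2-fold and 13.1-fold, BMP1, LTBP2 and the type I receptor gene TGFBR1 rose 5.21-fold, 4.92-fold and 4.71-fold, and BMP8A and SMAD5 rose 3.62-fold and 3.16-fold. BMP6 fell 3.88-fold, NOG 2.91-fold, TGFB2 2.29-fold and TGFBR2 2.09-fold. In limma's moderated test, called at a Benjamini-Hochberg adjusted p under 0.05 over all genes, 20 members were higher, 12 were lower and 30 did not pass. Over all genes tested, 20.6% were called higher, 24.6% lower and 45.1% in either direction. Without uninduced array 1 the members numbered 16 higher and 7 lower, beside 12.9% and 14.5% of all genes. Without uninduced array 2 they numbered 17 higher and 6 lower, beside 12.6% and 14.4%. At least 2-fold differences were called for 10 members upward and 4 downward, where the rates over all genes were 6.48% and 6.77%. The median log2 fold change was 0.078 over the members and 0.0 over all genes. The values of the groups overlapped for 18 of the 62 members and for 6117 of the 18417 genes tested, so they did not overlap for 66.8% of all genes. In RNA from whole cultures, a change in the share of cells that express a gene and a change in RNA per cell cannot be told apart.

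**Figure D1:**
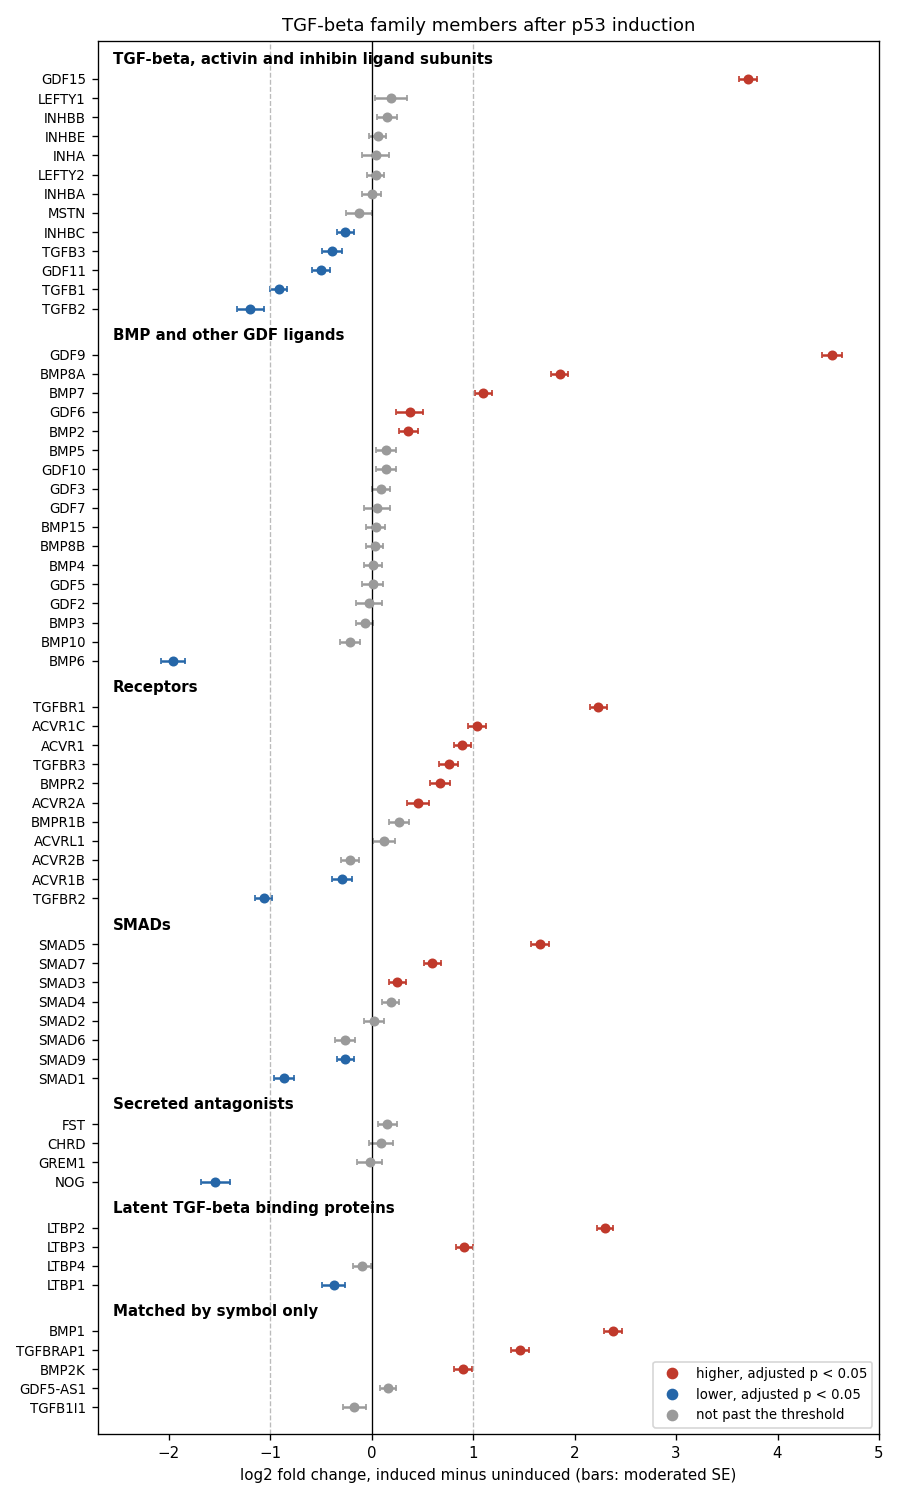
Log2 fold change (induced minus uninduced, x axis) of each of the 62 members, grouped by role, with limma's moderated SE as bars; red and blue points passed an adjusted p of 0.05, grey points did not, and dashed lines mark 2-fold. GDF9 (4.54) and GDF15 (3.71) lie far to the right, BMP6 (-1.96) farthest to the left, and most antagonists and activin subunits lie near 0.

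The line and its induction were checked on the same arrays. CDKN1A and MDM2, both direct p53 targets, rose 10.8-fold and 7.39-fold. Correlation across genes was 0.997 between the uninduced arrays, 0.995 between the induced arrays and 0.917 to 0.921 between groups (genes are not independent replicates). The mesenchymal filament gene VIM and the keratin gene KRT18 were bright on every array, at 12.29 to 12.75 and 10.98 to 11.17 log2 units, whereas the epithelial adhesion genes CDH1 and EPCAM lay between 5.39 and 5.94. Of this list of 7 epithelial and mesenchymal carcinoma markers, 42.9% were called, beside 45.1% of all genes. The keratin gene KRT8 rose 2.21-fold, VIM fell 1.32-fold and the N-cadherin gene CDH2 fell 1.27-fold. The other 4 did not pass the test, and the part of this list in the results below was not tested. As a rough gauge of signal from genes the line is not known to express, 18 blood, fibroblast and endothelial markers lay between 3.42 and 7.16 log2 units, with medians of 5.818 uninduced and 5.995 induced. Of the blood list 1 of 8 rose (CD3E, log2 fold change 0.26) and of the fibroblast and endothelial list 1 of 10 (TEK, 0.34). Over all genes 20.6% were called higher. Some members below were called on differences of a similar size, such as INHBC (-0.26) and SMAD3 (0.26). Markers of differentiated lung epithelium rose in 2 of 8 (25.0%, beside the same 20.6%), SCGB1A1 4.08-fold and SFTPC 1.23-fold. The summed log2 level of this list was 54.9 and 54.1 uninduced against 57.9 and 56.7 induced. The sums were 46.2 and 45.6 against 46.7 and 45.3 for the blood list and 57.4 and 56.7 against 58.6 and 57.6 for the fibroblast and endothelial list; the part of these markers in the results below was not tested. No member under the marker medians in both groups (6 members) was called by limma, and 0 had an unadjusted p under 0.05. Of 16 members at or under 7.16 on all 4 arrays 3 were called, and of the 46 others 29. The share called over all genes was 45.1%.

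Promoter windows of 300 bases, from 250 before to 50 after an annotated start, were available for 51 members. They are shown for the ligand genes with the largest rises, GDF9 and GDF15, for TGFBR1, the most raised member with a perfect repeat of the p53 consensus, and for TGFB3, the called member closest to the full consensus. The p53 response element is a pair of 10-base repeats up to 13 bases apart, searched on both strands. A perfect single repeat was found in a window of 6 members, 2 of them higher (TGFBR1, SMAD3), 2 lower (TGFB3, ACVR1B) and 2 not called (BMPR1B, BMP10). The members with a window were 15 higher, 11 lower and 25 not called. Over all 35116 promoter windows the share was 6.63%. A member was counted if any of its windows held a repeat, so the count is not matched to this share per window. TGFBR1 has several windows, and only the window shown holds a perfect repeat. No member had a perfect pair of repeats, which 0.03% of all windows held. In the lines below, from RefSeq on GRCh38.p14 and read 5′ to 3′ on the gene's strand, capitals mark the closest match to the pair of repeats in GDF15, GDF9 and TGFB3, and the perfect single repeat in TGFBR1.
GDF15 (chr19:18385908-18386207, plus strand): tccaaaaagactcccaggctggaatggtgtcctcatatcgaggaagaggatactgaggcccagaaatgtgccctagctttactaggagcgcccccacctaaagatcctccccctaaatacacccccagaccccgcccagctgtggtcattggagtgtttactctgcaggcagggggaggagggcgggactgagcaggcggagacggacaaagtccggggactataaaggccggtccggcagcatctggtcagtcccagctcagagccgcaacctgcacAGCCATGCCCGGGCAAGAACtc
GDF9 (chr5:132866281-132866580, minus strand): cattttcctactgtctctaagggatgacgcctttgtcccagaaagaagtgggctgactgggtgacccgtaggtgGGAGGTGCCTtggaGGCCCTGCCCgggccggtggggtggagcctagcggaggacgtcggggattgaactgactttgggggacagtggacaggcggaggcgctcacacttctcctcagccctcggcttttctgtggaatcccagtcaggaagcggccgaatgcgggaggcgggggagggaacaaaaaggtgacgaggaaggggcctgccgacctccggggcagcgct
TGFB3 (chr14:75982962-75983261, minus strand): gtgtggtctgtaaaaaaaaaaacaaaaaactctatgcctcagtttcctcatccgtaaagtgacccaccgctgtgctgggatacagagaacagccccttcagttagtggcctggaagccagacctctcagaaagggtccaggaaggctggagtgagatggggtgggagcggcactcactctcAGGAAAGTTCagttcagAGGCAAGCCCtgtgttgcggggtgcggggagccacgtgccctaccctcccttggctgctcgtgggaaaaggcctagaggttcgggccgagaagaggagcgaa
TGFBR1 (chr9:99103802-99104101, plus strand): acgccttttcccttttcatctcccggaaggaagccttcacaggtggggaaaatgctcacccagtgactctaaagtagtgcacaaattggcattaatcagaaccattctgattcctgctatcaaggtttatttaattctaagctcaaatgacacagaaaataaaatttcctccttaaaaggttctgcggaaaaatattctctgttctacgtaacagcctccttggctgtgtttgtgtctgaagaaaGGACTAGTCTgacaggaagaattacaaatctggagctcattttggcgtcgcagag
The GDF15 match begins 28 bases after the start and differs from the consensus at 3 of 20 positions, a level that 39.06% of all windows reach or better. The best GDF9 match differs at 4 of 20, as does the best match in each of its 4 windows, a level that 84.21% of all windows reach. The TGFB3 match, 69 bases before the start, differs at 1 of 20, which 0.74% of windows reach, and TGFB3 is among the members that fell. TGFB3 was picked as the closest of the called members, so this rate does not measure how unusual its match is. Its other window differs at 4 of 20, and a window of BMPR1B, which was not called, also differs at 1 of 20. Letters in a window are a description and not evidence of binding. The SMAD box CAGAC was present in windows of 28 members and the BMP element GGCGCC in those of 18, against 45.26% and 19.22% of all windows; a gene can have several windows.

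Among the 13 genes of the TGF-beta, activin and inhibin branch, grouped here with the distant member GDF15, 1 rose and 5 fell. The called share was 46.2%, near the 45.1% of all genes. GDF15, a secreted stress cytokine that acts through the receptor GFRAL in the hindbrain, stood at 7.69 and 7.53 log2 units on the uninduced arrays and at 11.34 and 11.30 on the induced arrays. Both induced arrays lay far above both uninduced arrays, and the difference of 3.71 (SE 0.092) had an adjusted p of 5.9e-07 in limma's test. GFRAL itself lay between 3.94 and 4.02 on all arrays, within the range of the marker genes, and did not pass the test. All 3 TGF-beta isoform genes went the other way. TGFB1, which encodes the most widely expressed isoform, read 9.42 and 9.47 uninduced and 8.51 and 8.55 induced, a fall of 1.89-fold (log2 fold change -0.92, SE 0.082, limma adjusted p = 7.1e-05). TGFB2 read 8.08 and 8.12 uninduced and 6.72 and 7.09 induced, a fall of 2.29-fold (log2 fold change -1.2, SE 0.13), with both induced values within the range of the marker genes. TGFB3 fell 1.31-fold, from 7.21 and 7.29 to 6.77 and 6.95, so its groups did not overlap but the gap was small, and its induced values lay within the marker range. GDF11, a close relative of myostatin, fell 1.41-fold, from 7.80 and 7.92 to 7.39 and 7.33. INHBC, an inhibin beta chain gene known from liver, had a log2 fold change of -0.26 (SE 0.082), from 6.01 and 6.06 to 5.78 and 5.77, all within the range of the marker genes. The inhibin and activin chain genes INHA, INHBA, INHBB and INHBE did not pass the test, with log2 fold changes between 0.0 and 0.16, nor did the Nodal inhibitors LEFTY1 and LEFTY2 (0.19 and 0.04) or MSTN, the myostatin gene (-0.12). The calls of the smaller falls were less steady. TGFB3 lost its call without uninduced array 1, uninduced array 2 or induced array 1 (log2 fold changes of -0.43, -0.35 and -0.30), GDF11 without uninduced array 2 (-0.44), and INHBC without any one array (-0.28 to -0.23). Fewer falls of this branch, and fewer falls over all genes, were called when any 1 array was left out. LEFTY1 gained a call without induced array 2 (0.45).

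Of 17 BMP and other GDF ligand genes, 5 rose, 1 fell and 11 did not pass (35.3% called, beside 45.1% of all genes). GDF9, an oocyte growth factor needed for follicle growth, read 6.22 and 6.01 log2 units uninduced and 10.64 and 10.66 induced. Its induced arrays agreed to 0.02 and its difference of 4.54 (SE 0.098, limma adjusted p = 4.8e-07) was the largest in the family. Its uninduced values lay within the range of the marker genes. BMP15, the oocyte partner of GDF9, lay between 4.97 and 5.12 on all arrays and did not pass the test. BMP8A, a BMP of germ cells and brown fat, rose from 6.71 and 6.68 to 8.59 and 8.51 (log2 fold change 1.86, SE 0.084). BMP8B, its near-identical neighbour, gave differing answers by probe set. The brighter BMP8B set read 7.75 on both uninduced arrays and 7.77 and 7.79 induced, whereas the second set rose 2.60-fold, from 6.99 and 6.92 to 8.21 and 8.46. Probes of BMP8A and BMP8B may share transcripts, so their values are uncertain. BMP7, a ligand of kidney and bone development, rose 2.14-fold, from 6.07 and 6.05 to 7.11 and 7.21. BMP2, an osteogenic ligand, had values of 7.08 and 7.04 uninduced and 7.51 and 7.33 induced (log2 fold change 0.36, SE 0.094). GDF6, a ligand of joint and eye development, had 6.17 and 6.18 against 6.74 and 6.36 (0.38, SE 0.13). The call of BMP2 ended without uninduced array 1, uninduced array 2 or induced array 1 (log2 fold changes of 0.38, 0.34 and 0.27). That of GDF6 ended without the same arrays (0.37, 0.38 and 0.18). Without each of these arrays fewer rises were called in this branch and over all genes. BMP2 and GDF6, with BMP7, BMP8A, GDF9 and ACVR1C, started within the marker range.

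BMP6, an iron-sensing ligand of the hepcidin pathway, was the gene of this branch that fell. It read 9.45 and 9.49 log2 units uninduced and 7.36 and 7.67 induced, a fall of 3.88-fold (log2 fold change -1.96, SE 0.12, limma adjusted p = 8.7e-06). The induced arrays differed more from each other than the uninduced arrays did, yet both lay well below them. BMP3, BMP4, BMP5, BMP10, GDF2, GDF3, GDF5, GDF7 and GDF10 did not pass the test, with log2 fold changes between -0.22 (BMP10) and 0.14 (BMP5 and GDF10).

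**Figure D2:**
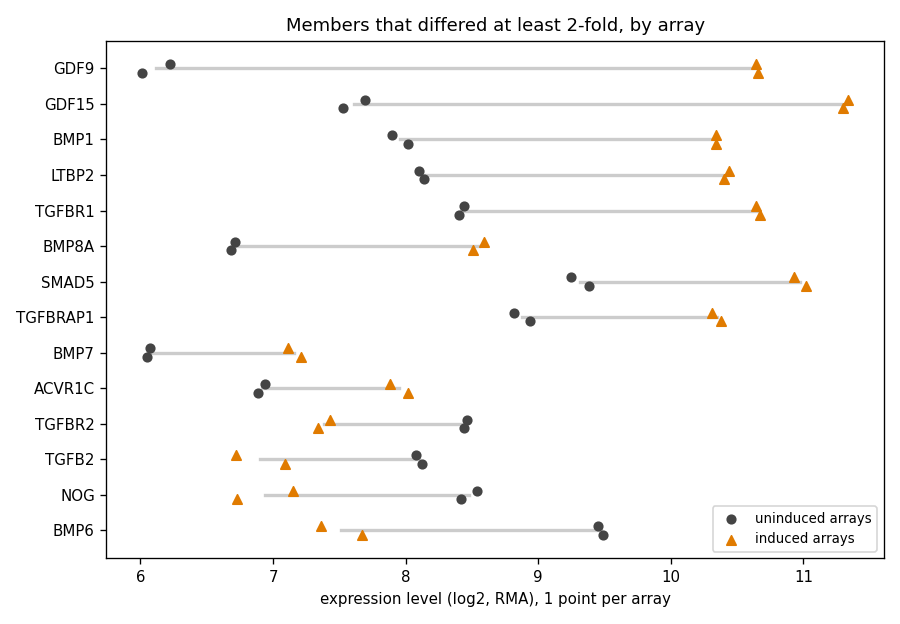
Expression level (log2, RMA, x axis) on each array of the 14 members that differed at least 2-fold, with uninduced arrays as grey circles, induced arrays as orange triangles and a bar between group means. In each of these genes the groups do not overlap; the induced arrays of BMP6, TGFB2 and NOG are spread more widely than those of GDF9 (10.64 and 10.66) or TGFBR1 (10.64 and 10.67).

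Of 11 receptor genes, 6 rose, 2 fell and 3 did not pass, with a median log2 fold change of 0.46. Called genes made up 72.7%, beside 45.1% of all genes. The TGF-beta receptor pair moved apart. TGFBR1, the type I receptor kinase ALK5, read 8.44 and 8.40 log2 units uninduced and 10.64 and 10.67 induced (log2 fold change 2.24, SE 0.082, limma adjusted p = 1.3e-06). TGFBR2, the type II receptor that binds TGF-beta first, read 8.46 and 8.44 uninduced and 7.43 and 7.34 induced (log2 fold change -1.06, SE 0.084, limma adjusted p = 3.7e-05). The spread between arrays of a group was a small part of either difference. TGFBR3, the coreceptor betaglycan, rose 1.69-fold, from 9.47 and 9.56 to 10.20 and 10.35. Among activin and BMP receptors, ACVR1C (ALK7), a receptor for Nodal and activin B, rose 2.05-fold, from 6.94 and 6.89 to 7.88 and 8.02. ACVR1 (ALK2), a type I receptor for BMPs, rose 1.86-fold, from 8.36 and 8.32 to 9.20 and 9.27. BMPR2, the BMP type II receptor, rose 1.60-fold, from 9.86 and 10.06 to 10.58 and 10.69. ACVR2A, a type II receptor for activins and BMPs, rose 1.38-fold, from 7.68 and 7.96 to 8.25 and 8.31. ACVR1B (ALK4), the type I activin receptor, fell 1.22-fold, from 8.61 and 8.47 to 8.18 and 8.32. The adjusted p of ACVR1B was 0.0425 in limma's test, and its call ended after quantile normalization again, after centring the arrays and without any one array (log2 fold changes of -0.36 to -0.21). The call of ACVR2A ended without uninduced array 1, induced array 1 or induced array 2 (0.32, 0.49 and 0.43) and that of BMPR2 without induced array 2 (0.62, limma adjusted p = 0.0538). BMPR1B differed by 0.27 (SE 0.10) without passing the test, and gained a call after quantile normalization again or centring (both 0.34) and without dim genes (0.27); ACVRL1 (ALK1, an endothelial receptor) and ACVR2B had 0.12 and -0.22 and did not pass. BMPR1A was not analysed here.

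SMAD genes were split, including those that serve the same ligands. Of 8, 3 rose, 2 fell and 3 did not pass (62.5% called, beside 45.1% of all genes). SMAD5, a BMP-responsive SMAD, read 9.25 and 9.38 log2 units uninduced and 10.93 and 11.02 induced (log2 fold change 1.66, SE 0.091, limma adjusted p = 6.3e-06). SMAD1, which transduces the same BMP signals, read 8.40 and 8.37 uninduced and 7.40 and 7.64 induced (log2 fold change -0.86, SE 0.10, limma adjusted p = 0.000298). SMAD9, the third BMP-responsive SMAD, had a log2 fold change of -0.26 (SE 0.083), from 8.08 and 8.06 to 7.85 and 7.77. Of the TGF-beta and activin SMADs, SMAD3 had a log2 fold change of 0.26 (SE 0.085), from 9.67 and 9.58 to 9.85 and 9.91, and SMAD2 one of 0.02. SMAD4, the common partner, had one of 0.19 (SE 0.083, limma adjusted p = 0.107). SMAD7, an inhibitory SMAD that TGF-beta itself induces, rose 1.52-fold, from 7.74 and 7.76 to 8.37 and 8.33, while SMAD6, the inhibitor of BMP signalling, had a log2 fold change of -0.26 (SE 0.10, limma adjusted p = 0.0746). The small differences of SMAD3 and SMAD9 sat near the threshold. SMAD3 lost its call without any one array (log2 fold changes of 0.21 to 0.30), and SMAD9 without uninduced array 1, uninduced array 2 or induced array 2 (-0.25, -0.27 and -0.22), after quantile normalization again and after centring the arrays (both -0.18). SMAD6 gained a call without induced array 1 (-0.38) and without dim genes (-0.26), and SMAD4 when the arrays were centred (0.27), without dim genes or with an intensity trend (both 0.19).

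Of the 4 secreted antagonist genes, noggin alone passed the test (25.0% called, beside 45.1% of all genes). NOG, which encodes a BMP trap, read 8.54 and 8.42 log2 units uninduced and 7.15 and 6.73 induced (log2 fold change -1.54, SE 0.14, limma adjusted p = 7.6e-05). Its induced values lay within the range of the marker genes. The log2 fold changes of FST (follistatin, an activin trap), CHRD (chordin) and GREM1 (gremlin) were 0.16, 0.10 and -0.02. Among the 4 LTBP genes 2 rose and 1 fell (75.0% called, beside 45.1% of all genes). LTBP2, a matrix microfibril protein that differs from the other LTBPs in not binding latent TGF-beta, read 8.10 and 8.14 uninduced and 10.44 and 10.40 induced (log2 fold change 2.30, SE 0.082, limma adjusted p = 1.2e-06). LTBP3 rose 1.89-fold, from 8.91 and 8.88 to 9.86 and 9.76. LTBP1 had a log2 fold change of -0.38 (SE 0.11), from 6.44 on both uninduced arrays to 6.20 and 5.93, all within the marker range, and lost its call without uninduced array 1 (-0.38), uninduced array 2 (-0.38) or induced array 2 (-0.24). LTBP4 had one of -0.10.

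Of the 5 genes matched by symbol only, 3 rose (60.0% called, beside 45.1% of all genes). BMP1 is a metalloprotease that cleaves procollagen and chordin and is no BMP ligand; it read 7.90 and 8.02 log2 units uninduced and 10.34 on both induced arrays (log2 fold change 2.38, SE 0.087). A second BMP1 probe set, built on 1 transcript record, rose 1.48-fold, from 5.96 and 6.03 to 6.69 and 6.44, so the probe sets went the same way by different amounts. TGFBRAP1, an endosomal tethering protein named for binding TGF-beta receptors, rose 2.76-fold, from 8.82 and 8.94 to 10.31 and 10.38. BMP2K, a kinase of clathrin-mediated uptake, rose 1.87-fold, from 7.89 and 7.97 to 8.77 and 8.89. GDF5-AS1 and TGFB1I1, the focal adhesion protein Hic-5, had log2 fold changes of 0.16 and -0.17 and did not pass the test.

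**Figure D3:**
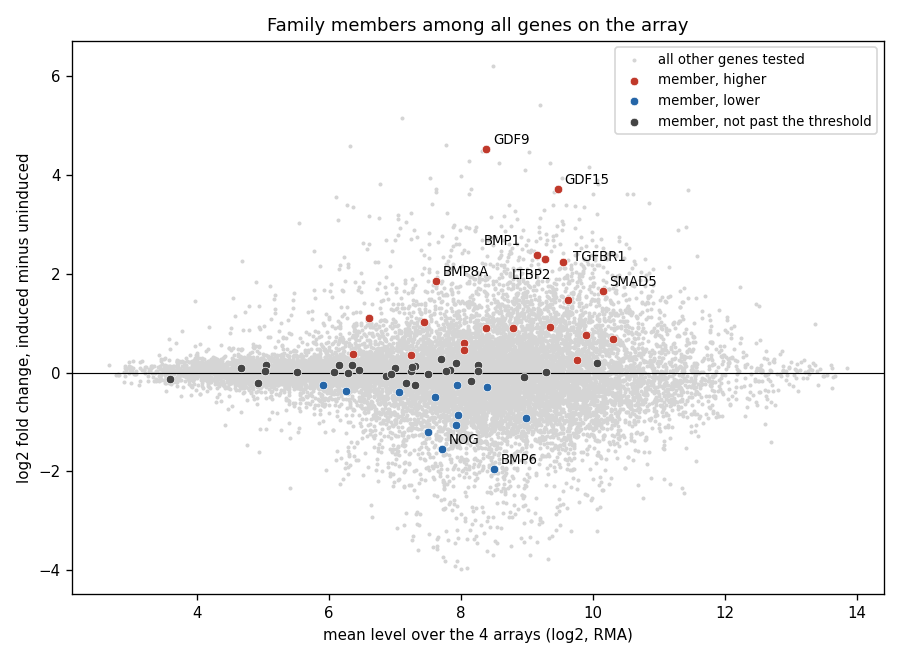
Log2 fold change (y axis) against mean level over the 4 arrays (x axis, log2 RMA) for every gene tested (light grey) and the 62 members (red higher, blue lower, dark grey not past the threshold), with members of at least 1.5 in absolute log2 fold change named. The members spread over most of the range of levels; GDF9 and GDF15 lie near the upper edge of the cloud, while BMP6 (-1.96) and NOG (-1.54) lie inside its lower part.

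The 5 members called with a log2 fold change of at least 2 in either direction were all higher, and their neighbours in the order of the RefSeq gene table did not follow a common course. The gene next to GDF9, the mitochondrial complex III subunit gene UQCRQ, read 9.84 and 9.81 uninduced and 9.65 and 9.61 induced and did not pass the test (log2 fold change -0.20, SE 0.082). SHROOM1, the next gene measured on the other side, had a log2 fold change of -0.21 and did not pass. Beside GDF15, PGPEP1, a peptidase gene, rose 1.91-fold, from 7.47 and 7.5 to 8.32 and 8.51, whereas LRRC25, the next gene measured on the other side, had a log2 fold change of 0.02. Beside TGFBR1, the collagen gene COL15A1 rose 2.77-fold, from 6.58 and 6.49 to 7.90 and 8.11, whereas ALG2 had one of -0.02. The neighbours of LTBP2, ISCA2 and AREL1, had log2 fold changes of -0.24 and 0.05 and did not pass. Beside BMP1, SFTPC rose 1.23-fold and PHYHIP had a log2 fold change of 0.20 and did not pass.

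Genes of the pathway outside the family were taken in 9 lists. Of 121 measured, 33 rose and 23 fell (46.3%), beside 45.1% of all genes, with a median log2 fold change of 0.07. Genes that hold or release latent TGF-beta moved in both directions, 6 of 16 higher and 5 lower (68.8% called). ITGB8, the integrin chain that activates latent TGF-beta with ITGAV, rose from 5.57 and 5.65 log2 units to 8.61 and 8.47, or 7.62-fold from values within the marker range. FBN2, a microfibril gene, rose 4.99-fold. THBS1, a matrix thrombospondin able to activate latent TGF-beta, fell 3.77-fold (log2 fold change -1.92, SE 0.082), from 10.34 and 10.38 to 8.46 and 8.43. The integrin gene ITGB5 fell 2.46-fold (log2 fold change -1.3, SE 0.089). Without uninduced array 1 or uninduced array 2 fewer falls were called in this list and over all genes. Among 9 coreceptor and pseudoreceptor genes 4 rose and 2 fell (66.7% called). TMEFF2 rose 2.34-fold, CD109, a TGF-beta coreceptor, 2.01-fold and NRP2 1.52-fold. RGMB, a BMP coreceptor, fell 1.43-fold (log2 fold change -0.52). TMEFF2 (5.90 and 5.69 uninduced, 6.90 and 7.14 induced) and CD109 (4.89 and 4.64, 5.58 and 5.97) lay within the marker range on all 4 arrays, and without dim genes 2 of this list were higher. CD109 lost its call without uninduced array 2 (0.89), and RGMB without uninduced array 1 (-0.48). Fewer falls of this list, and fewer over all genes, were called without uninduced array 1 or without uninduced array 2. Of 16 other secreted antagonists and ligand binders 2 rose and 1 fell (18.8% called). KCP and BGN had log2 fold changes of 0.29 and 0.34, and FSTL1 one of -0.42. All 3 calls ended without uninduced array 1 or without uninduced array 2 (0.34 and 0.24 for KCP, 0.39 and 0.28 for BGN, -0.41 in both cases for FSTL1). Without induced array 1, KCP (0.33) and BGN (0.20) also lost their calls, and KCP did without induced array 2 (0.25).

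Inside the cell, of 22 receptor and SMAD regulators 6 rose and 4 fell (45.5% called, near the 45.1% of all genes). USP15, a deubiquitinase acting on SMADs and TGFBR1, rose 3.13-fold, PPM1A, a SMAD phosphatase, 3.08-fold and the ubiquitin ligase gene WWP1 2.95-fold. LEMD3, an inner nuclear membrane protein that binds SMADs, fell 1.59-fold (log2 fold change -0.67), a call lost without uninduced array 2 (-0.60). Without that array fewer rises and fewer falls were called among these regulators and over all genes. Of 16 nuclear partners 4 rose and 5 fell (56.2% called). SKIL, a SMAD corepressor that TGF-beta also induces, fell 3.53-fold (log2 fold change -1.82, SE 0.13), from 8.58 and 8.93 to 6.85 and 7.02. RUNX1 fell 1.99-fold. MED15, a Mediator subunit that binds SMADs, rose 2.26-fold and the corepressor gene TGIF1 1.87-fold.

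Of 17 TGF-beta and activin target genes measured outside the family, 9 rose and 4 fell, with a median log2 fold change of 0.29. Called genes made up 76.5%, beside 45.1% of all genes, and they include CDKN1A, which also served as the check of the induction. Fewer of these rises were called when any 1 array was left out, and so were fewer rises over all genes. The largest rises were those of CDKN1A, itself a p53 target, at 10.8-fold and of RHOB, a small GTPase, at 8.69-fold, from 8.32 and 8.13 to 11.28 and 11.41. ANGPTL4, a secreted lipase inhibitor, fell 2.89-fold (log2 fold change -1.53, SE 0.093) and TPM1, a tropomyosin gene, fell 2.59-fold (-1.38, SE 0.11). The other rises were TAGLN (2.06-fold), JUNB (1.89-fold), LIF (1.83-fold), IGFBP3 (1.74-fold), BHLHE40 (1.52-fold), FN1 (1.24-fold) and CDKN2B (1.19-fold). KLF10, a zinc-finger gene named for early induction by TGF-beta, fell 2.36-fold, and TGFBI fell 1.82-fold. TAGLN, LIF and IGFBP3 started within the marker range and TGFBI ended there. CCN2, a matricellular target, read 11.08 and 11.11 uninduced and 11.07 and 11.09 induced and did not pass. These further genes were named after the values were seen. Of 15 BMP target genes 2 rose and 3 fell (33.3% called). The ID genes, which encode inhibitors of basic helix-loop-helix factors, were split. ID2 rose 3.10-fold, from 9.45 and 9.57 to 11.11 and 11.17, and ID3 1.62-fold. ID1, also named after its value was seen, fell 1.58-fold, from 11.60 and 11.43 to 10.88 and 10.83. RUNX2 and HEY2 had log2 fold changes of -0.70 each. HEY2 lost its call without uninduced array 1 (-0.56), induced array 1 (-0.62) or induced array 2 (-0.77). None of NODAL, AMH and AMHR2, and none of 8 GDNF family and GFRAL genes, passed limma's test, and 0 of either list had an unadjusted p under 0.05; log2 fold changes of the latter list ran from -0.32 to 0.17. Without induced array 1, 1 gene of the latter list was called lower.

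**Figure D4:**
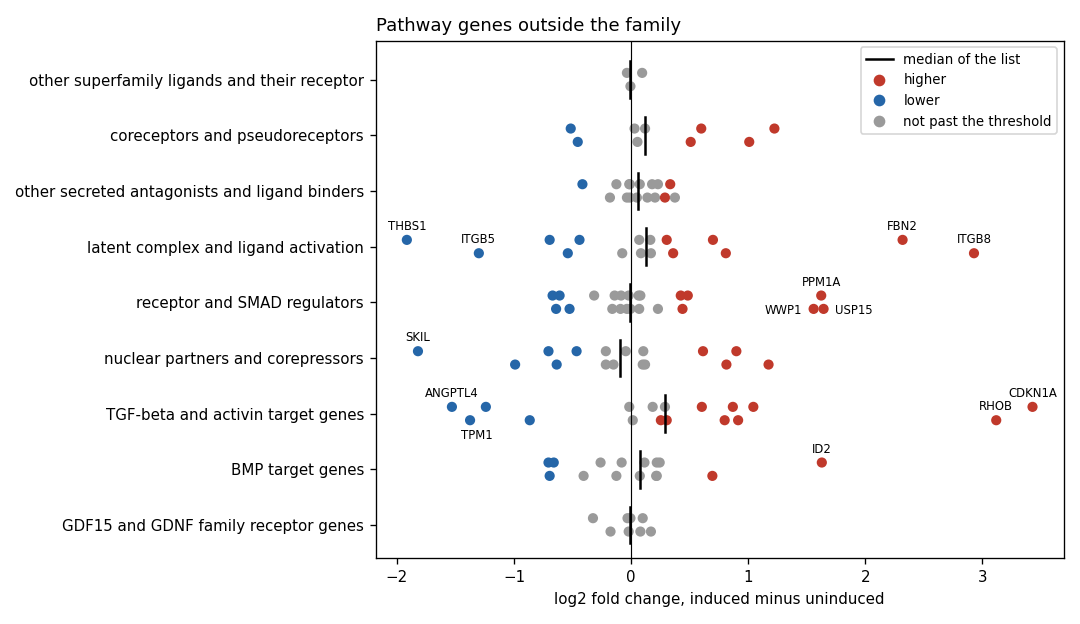
Log2 fold change (x axis) of the genes of 9 pathway lists outside the family (y axis), 1 point per gene, red higher, blue lower and grey not past the threshold, with the median of each list as a black bar and genes of at least 1.3 in absolute value named. Each list with called genes holds points on both sides of 0; CDKN1A (3.43), RHOB (3.12) and ITGB8 (2.93) lie farthest right and THBS1 (-1.92) and SKIL (-1.82) farthest left.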

How the data were processed

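Biotinylated cDNA from total RNA was measured on an Affymetrix gene array, per the labels' protocols. The deposited values are log2 expression levels that the authors made with Affymetrix Expression Console and RMA, per the submitters' processing notes; versions and genome build were not given in the sources used here. RMA equalises the arrays' distributions, which would hide a change of all transcripts, and compresses folds of dim genes. No detection call was used here.

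Of 33297 rows, 19460 had 1 gene symbol; a gene was represented by its probe set with the highest mean, which left 18417 genes, among them 62 members (65 probe sets). A probe set shared by GDF1 and another gene was not used. limma 3.58.1 in R 4.3.3 (lmFit, then eBayes with its prior constant over intensity) compared induced with uninduced arrays in a two-sided test, and p-values were adjusted by Benjamini-Hochberg across every gene tested. The fit was tested on simulated data. Figures used Python 3.11.15 with matplotlib 3.10.9. Every called member is given with values, and from each pathway list the 4 called genes with the largest absolute log2 fold change. The closest-match search in promoters was added after the values were seen. Members and lists were chosen with earlier results of these data known. Of 12 alternatives tried, the closing section gives the effect.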

Additional observations from a re-analysis of the deposited data

Results flagged for a closer look

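Rows of the table that the comparison does not use also held a signal. The second BMP1 probe set had a log2 fold change of 0.57 (SE 0.11, limma adjusted p = 0.0165 with every row tested) and the second BMP8B probe set one of 1.38 (SE 0.11, adjusted p = 0.00096 in the same test). The second SMAD2 probe set and the set shared by CERS1 and GDF1 had log2 fold changes of -0.10 and -0.06 and did not pass. With 2 arrays a group, no array could be tested as an outlier.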

How the results depend on the processing

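No called member changed direction under any of the 12 alternatives. Of the 32 called members, 21 (15 higher, 6 lower) were called under every alternative that tested them, and 25 of the 30 others were called under none; the dim filter left 23 members untested. The number of members higher was 16 to 18 when 1 array was left out, and 16 to 22 over all alternatives; the number lower was 6 to 10 when 1 array was left out (7 without uninduced array 1, 6 without uninduced array 2) and 6 when limma's treat tested against a fold of 1.2. Over all genes the number lower also dropped, from 4522 to 2670 and 2643 without those arrays and to 2977 with treat, and the number higher from 3789 to 2373, 2316 and 2502. With every row of the table tested, 18 members were higher and 8 lower. The counts of at least 2-fold differences stayed at 9 or 10 higher and 3 or 4 lower. Pathway genes outside the family numbered 21 to 30 higher when 1 array was left out (21 without uninduced array 2) and 17 to 24 lower. With the replicate number as a block, 18 members were higher and 10 lower; ACVR1B, GDF6, LTBP1 and SMAD3 lost their calls. The labels do not say what the number marks, and deviations of same-numbered arrays correlated at 0.22 across genes. Averaging a gene's probe sets added BMP8B to the higher members (log2 fold change 0.70). Centring the arrays moved the median of all genes by 0.075, and the higher share of all calls from 45.6% to 53.7%. Array background can limit folds where values are dim, as those of GDF9 were on the uninduced arrays, and this was not tested.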
